A study of Homo sapiens with 8 samples.

Results

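The genes described here encode the proteins that choose and carry out mRNA splicing: SR proteins, hnRNPs, regulators of tissue-dependent splicing and core parts of the spliceosome. They were chosen by name, as symbols that start with 1 of 14 family prefixes (SRSF, SRRM, TRA2, HNRNP, PTBP, MBNL, CELF, RBFOX, ESRP, SF3A, SF3B, U2AF, PRPF and SNRP), without HNRNPA2B1 and without pseudogenes. The rule gave 77 genes of 12058 names in the series, 58 of 10447 in the HUH7 column and 61 of 5477 in the PLC/PRF/5 column, where they carried 107 of 9516 peaks. Values in both columns were found for 42 of them, and all 77 are protein-coding in RefSeq.

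HUH7 and PLC/PRF/5 are established cell lines from human hepatocellular carcinoma. MeRIP-seq, in which fragmented poly(A) RNA is pulled down with an antibody against N6-methyladenosine (m6A) and sequenced beside an input, was done on CKO cells, in which CSTF2 was knocked out with CRISPR-Cas9, and on CON cells, the parental line. Each line gave 4 libraries (CKO IP, CKO input, CON IP and CON input), 8 in all, with 1 library in each group, and the labels do not say whether the knockout cells are 1 clone. CSTF2 encodes the subunit of the cleavage stimulation factor that binds the GU-rich element downstream of a poly(A) site. CSTF2 itself had no HUH7 value and 1 PLC/PRF/5 peak at -0.50 in the authors' deposited table, which is a value of the m6A comparison and no check of the knockout.

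SR proteins carry RNA recognition motifs and a domain rich in arginine and serine, and they mostly promote the use of the exons to which they bind. hnRNPs coat nascent transcripts and often have the opposite effect on an exon. The spliceosome is built from small nuclear ribonucleoproteins (snRNPs) that recognise the splice sites in turn. m6A meets this machinery at several points known from human cells: the nuclear reader YTHDC1 recruits SRSF3 and keeps SRSF10 from the RNA, and HNRNPC binds U-tracts that m6A makes accessible. Transcripts of many SR and hnRNP genes are themselves spliced under the control of their own proteins.

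Each value is the log2 fold change of a difference, as the authors deposited it, 1 per gene in HUH7 and 1 per peak in PLC/PRF/5. The headers do not say whether CKO or CON is the numerator, so signs are given as deposited, and whether both columns use the same direction is not stated either. With 1 library in each group there was no replicate and no test of the genotypes, and no value below carries an error. Sequencing depth is unknown. Change in m6A and change in RNA amount cannot be told apart beyond what the authors' unstated scaling to input did. Hepatocyte markers had a value for 6 of 8 listed genes in HUH7 and 7 of 8 in PLC/PRF/5, while stromal markers had one for 4 of 4 in HUH7 and 0 of 4 in PLC/PRF/5. Endothelial markers had one for 2 of 3 in HUH7 and 1 of 3 in PLC/PRF/5, and immune markers for 1 of 3 in each line. Of all protein-coding genes, 51.0% had a value in HUH7 and 24.1% in PLC/PRF/5. Expression levels are not given, so these marker counts do not check the identity of the lines, which was not checked in another way.

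In HUH7 most splicing factor genes had a size below 1, as did most names of the column, and more were positive than negative. Positive values were held by 40 of the 58 genes (69.0%, against 60.8% of all names of the column) and negative values by 18 (31.0%, against 39.1%). Their median was 0.24, against 0.20 for the whole column. An order-statistic 95% interval of 0.05 to 0.43 treats the genes as independent draws, which genes of 1 comparison are not. The interval holds no error between libraries and is not a test. A size of 1 or more on the log2 scale, in either direction, was found for 14 genes (24.1%, against 36.9% of the column), of which 10 were positive (17.2%, against 22.2%) and 4 negative (6.90%, against 14.6%). The threshold of 1 separates near neighbours: PTBP3 (1.02) and SRRM2 (1.03) lay just past it, and SRSF4 and HNRNPLL (both 0.99) just short of it in the authors' deposited table.

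These counts include values that the column repeats. The HUH7 column holds 16 values of large size that 10 or more genes share to 6 decimals, in 1315 genes or 12.6% of the column. Only 2 splicing factor genes (3.45%) had such a value. HNRNPH1, which binds runs of G, had 9.92 in the authors' deposited table, a value shared by 60 genes. SRRM3, a regulator of neuronal microexons in mice and humans, had -8.75 in the authors' deposited table, shared by 85 genes. On the linear scale the 8 positive repeated values stand to each other as the whole numbers from 3 to 10, and so do the 8 negative ones, with deviations of at most 4.1e-06; HNRNPH1 sits at 4 and SRRM3 at 7. Sizes of these values were therefore not ranked against the others. Without repeated values, 12 of 56 splicing factor genes (21.4%) lay at or past 1 in size, against 27.8% of the column, and the interquartile range was -0.06 to 0.79, against -0.21 to 0.81.

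**Figure D1:**
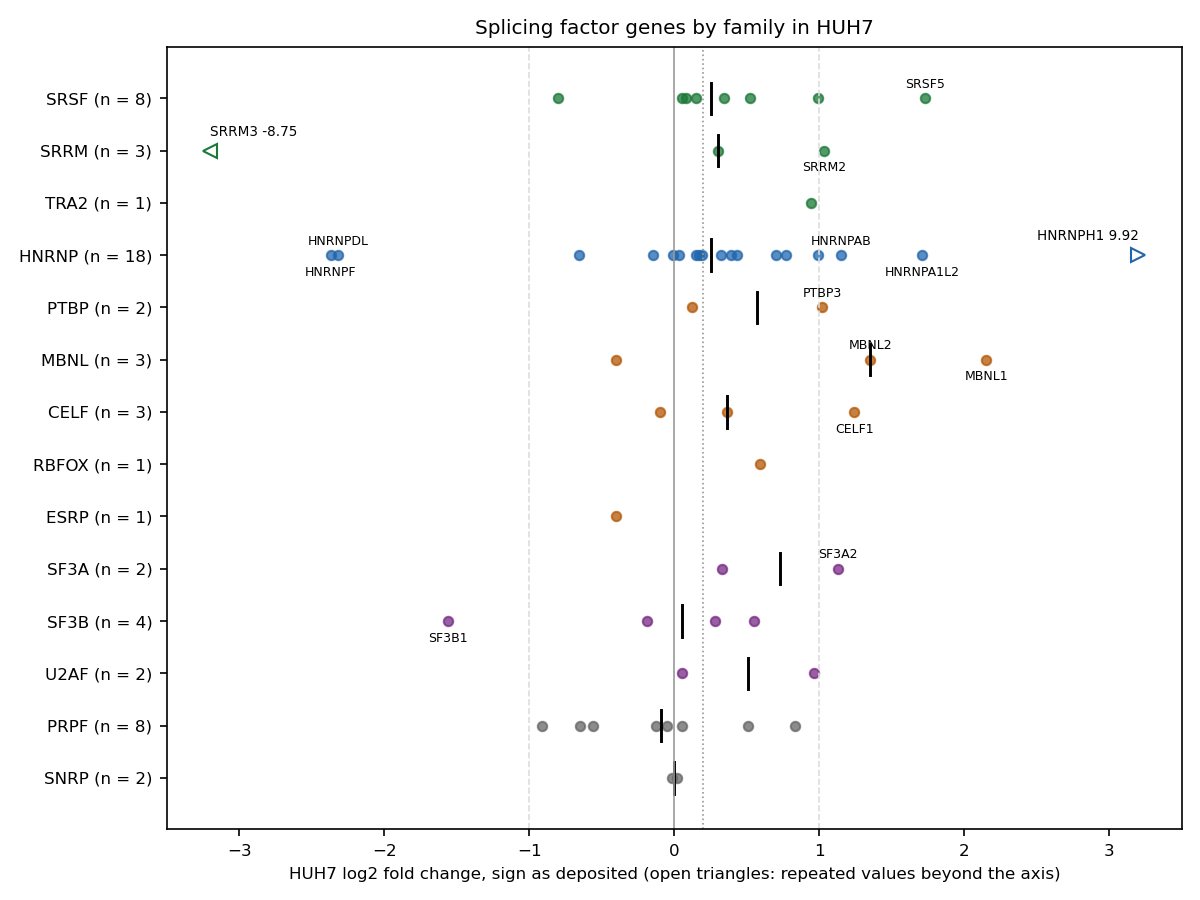
HUH7 log2 fold changes (horizontal axis, sign as deposited) of the splicing factor genes by family, 1 point per gene in the authors' deposited table, with the family median as a black bar, the column median of 0.20 as a dotted line and -1 and 1 as dashed lines. Open triangles mark HNRNPH1 (9.92) and SRRM3 (-8.75), which lie beyond the axis; MBNL1 (2.15) is the highest and HNRNPF (-2.37) the lowest of the other points, and no PRPF or SNRP gene lies past 1 in either direction.

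SR protein genes were nearly all positive in HUH7, and 1 of 8 lay at or past 1 in size, against 36.9% of the column. Of 8 SRSF genes 7 were positive, against 60.8% of all names of the column, with a median of 0.25. SRSF5, an SR protein of the group with SRSF4 and SRSF6, was the highest at 1.73, and SRSF12, a relative of SRSF10 that acts as a splicing repressor, was the lowest at -0.80 in the authors' deposited table. SRSF4 had 0.99, SRSF9 0.52 and SRSF8, a retrocopy of SRSF2, 0.34 in the authors' deposited table. SRSF2 (0.15), which binds exonic enhancers, SRSF7 (0.08), which also acts in mRNA export, and SRSF11 (0.05) had the smallest values of the family in the authors' deposited table. SRSF1, the founding SR protein, had no value in either column used here.

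SR-related genes followed the same sign apart from SRRM3. SRRM2, a scaffold of nuclear speckles, had 1.03 and SRRM1, a splicing coactivator, 0.30 in the authors' deposited table. TRA2B, which binds GAA-rich enhancers, had 0.94 in the authors' deposited table. Counting SRSF, SRRM and TRA2 together, 10 of 12 genes were positive, against 60.8% of the column, with a median of 0.32.

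The hnRNP family had the widest range in HUH7 but also the most genes, and a range grows with their number. Close relatives within it lay far apart. Of 18 genes 13 were positive and 5 negative, against 60.8% positive in the column. Their median was 0.25, and 0.19 without HNRNPH1. Among the relatives that bind runs of G, HNRNPF had -2.37 and HNRNPH2 0.17 in the authors' deposited table, beside the repeated 9.92 of HNRNPH1. HNRNPF lies on chromosome 10 (43385618 to 43409186, GRCh38), HNRNPH2 on chromosome X (101408222 to 101414133) and HNRNPH1 on chromosome 5 (179614178 to 179634784).

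A second group of relatives also held values of both signs. HNRNPD, known as AUF1 and a binder of AU-rich elements, had 0.70, HNRNPAB 1.15 and HNRNPDL, whose own transcript is controlled by alternative splicing, -2.32 in the authors' deposited table. HNRNPD (chromosome 4, 82352498 to 82373991) and HNRNPDL (chromosome 4, 82422564 to 82430462) are neighbours, 48572 bases apart. They were the closest pair among the splicing factor genes, and their HUH7 values had opposite signs.

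The other hnRNP genes lay between -0.66 and 1.71. HNRNPA1, a repressor of many exons, had -0.01, HNRNPA3 0.39 and HNRNPA0 0.43 in the authors' deposited table. HNRNPA1L2, a retrocopy of HNRNPA1, had 1.71 in the authors' deposited table; the RefSeq table also lists 75 pseudogenes named after HNRNPA1, and how reads shared by such copies were assigned is not given in the sources used here. HNRNPLL (0.99), known for its part in CD45 splicing in T cells, and HNRNPC (0.77) were the next highest in the authors' deposited table. HNRNPM had -0.66, and HNRNPU, which binds chromatin-associated RNA, had -0.15 in the authors' deposited table. HNRNPU's relatives HNRNPUL1 (0.03) and HNRNPUL2 (0.32), HNRNPL (0.15), which binds CA repeats, and HNRNPR (0.19) stayed near 0 in the authors' deposited table.

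Regulators known for tissue-dependent splicing included the highest value outside the repeated ones. MBNL1, a muscleblind protein that drives adult splicing patterns in muscle, had 2.15 and MBNL2 1.35, while MBNL3 had -0.40 in the authors' deposited table. CELF1, which opposes MBNL proteins on shared exons in muscle, had 1.24 and its relatives CELF4 and CELF6 0.36 and -0.10 in the authors' deposited table. PTBP3 had 1.02 and PTBP1, a repressor of neuronal exons, 0.12 in the authors' deposited table. RBFOX2, which binds UGCAUG elements, had 0.59 and ESRP2, an epithelial regulator with a role in adult mouse liver, -0.40 in the authors' deposited table. Over these 5 families 7 of 10 genes were positive (60.8% in the column), with a median of 0.48. At or above 1 were 4 of the 10 (22.2% in the column).

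Genes for recognition of the 3′ splice site ranged from -1.56 to 1.13. SF3B1, the branch site subunit that is mutated in several cancers, had the lowest value at -1.56 in the authors' deposited table. Its partners SF3B3 (-0.19), SF3B4 (0.28) and SF3B5 (0.55) lay closer to 0 in the authors' deposited table. SF3A2 had 1.13 and SF3A1 0.33 in the authors' deposited table. U2AF2, which binds the polypyrimidine tract, had 0.05 and U2AF1L4, a relative of its partner U2AF1, 0.96 in the authors' deposited table. Of the 8 genes 6 were positive, against 60.8% of the column, with a median of 0.30.

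PRPF was the only family of 2 or more genes with more negative than positive values in HUH7. Of 8 PRPF genes 3 were positive and 5 negative, against 60.8% positive in the column, with a median of -0.09. PRPF38A, which joins before activation, had -0.65 and PRPF4, of the tri-snRNP, -0.56 in the authors' deposited table. PRPF18, of the second catalytic step, had 0.83 and PRPF19, a ubiquitin ligase of the active spliceosome, 0.51 in the authors' deposited table. PRPF31 (-0.13), PRPF38B (-0.05) and the kinase gene PRPF4B (0.05), now named PRP4K, lay near 0 in the authors' deposited table. SNRPD2 and SNRPG, of the Sm ring that all major snRNPs but one share, had -0.02 and 0.02 in the authors' deposited table. Differences between families were not tested, since genes of 1 comparison are not replicates.

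Families also differed in how many of their genes had a value at all. Of 98 protein-coding genes that the rule covers, 59.2% had a value in HUH7 and 62.2% in PLC/PRF/5, against 51.0% and 24.1% of all 20056 protein-coding genes of the RefSeq table. The family genes were counted by the names given, and all protein-coding genes by current symbols. HNRNPA1L3 therefore counts as without a value, though its older symbol HNRNPA1P48 had -0.30 in HUH7 in the authors' deposited table. PRPF genes had 12 of 13 in PLC/PRF/5 and 8 of 13 in HUH7, and TRA2 genes 2 of 2 and 1 of 2. SNRP genes had 2 of 12 in HUH7 and 6 of 12 in PLC/PRF/5. CELF genes, of which several are mainly neuronal, had 3 of 6 in HUH7 and 0 of 6 in PLC/PRF/5, and RBFOX genes 1 of 3 in each line. Expression levels were not analysed here, and their part in these shares was not tested.

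**Figure D2:**
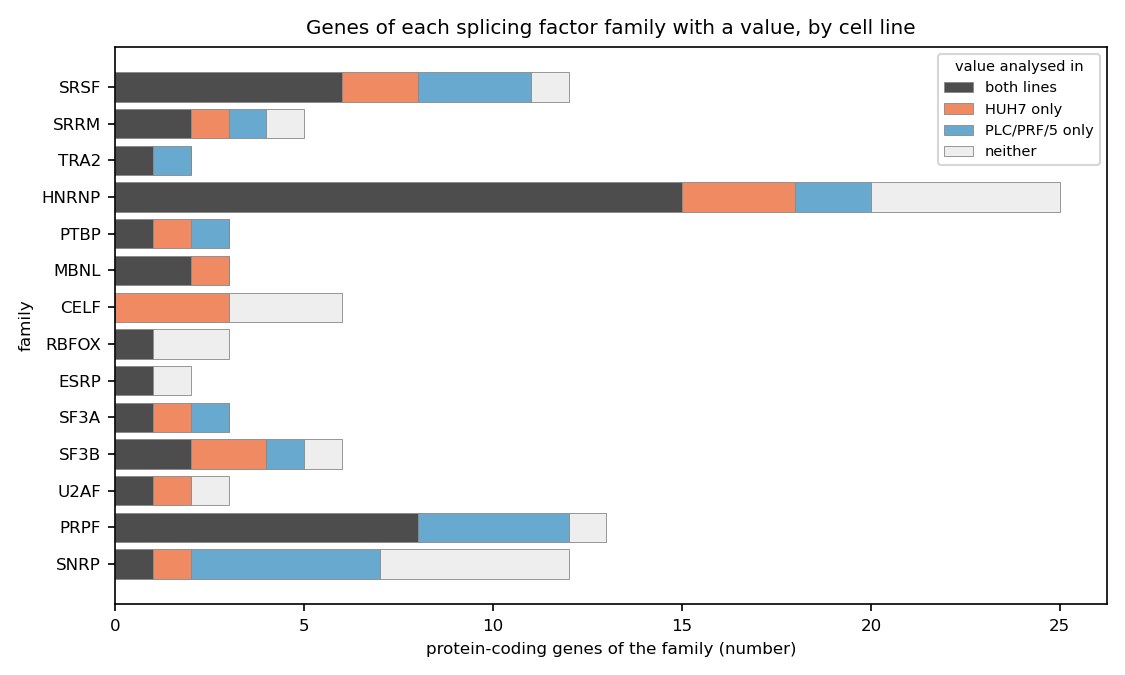
Number of protein-coding genes of each family (horizontal axis) with a value in both lines, in HUH7 only, in PLC/PRF/5 only or in neither. Genes are counted by the names given, so HNRNPA1L3 is among those in neither. The HNRNP bar holds 15 genes of both lines, the PRPF bar has no HUH7-only gene, and the CELF bar has no gene of PLC/PRF/5.

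In PLC/PRF/5 the peaks of splicing factor genes had large values, as did the peaks of the column in general. Of 107 peaks 95 were positive (88.8%, against 86.0% of all peaks) and 12 negative (11.2%, against 14.0%). The median peak had 5.36 (interquartile range 2.0 to 8.65), against 5.44 (1.72 to 9.19) in the column. At or past 1 in size lay 94 peaks (87.9%, against 87.1%). The PLC/PRF/5 column as a whole is filled evenly: from -2 to 13, the number of peaks in a bin of width 1 ran only from 599 to 655. Of the peaks of splicing factor genes, 18.7% lay below 1, 29.0% from 1 to 5, another 29.0% from 5 to 9 and 23.4% from 9 to 13, against 20.3%, 26.8%, 26.6% and 26.4% of all peaks. The size of a single PLC/PRF/5 value therefore places a gene within an even range. Medians, extremes and correlations of these values are given below as description only. Whether these values belong to the gene named beside them could not be settled from the table, which bears on every PLC/PRF/5 value and every comparison of signs between the lines given below.

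Peaks of the same splicing factor gene could lie close together or far apart. With 2 or more peaks were 25 of 61 genes (41.0%, against 39.5% of the column), and the median distance between a gene's lowest and highest peak was 7.13, against 6.42. Among genes with exactly 2 peaks the median distance was 4.04 over 18 splicing factor genes, against 4.35 over 1274 genes. SRSF11 had peaks at 0.08 and 12.83, and PRPF4B at 0.79 and 12.66 in the authors' deposited table. SRSF3 had the closest pair, at 5.36 and 5.75 in the authors' deposited table. Peak positions were not analysed here, so peaks could not be placed on exons or 3′ ends.

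SRRM2 and HNRNPU had the most peaks, 8 each, and SRRM1 had 6. In the column as a whole, 49 of 5477 genes (0.895%) had 8 or more peaks. The SRRM2 peaks were at 3.42, 5.39, 5.94, 6.85, 8.08, 11.01, 11.31 and 11.66 in the authors' deposited table. The HNRNPU peaks were at 0.02, 0.59, 5.39, 7.52, 7.61, 8.12, 8.41 and 9.98 in the authors' deposited table. The SRRM1 peaks were at 2.36, 5.04, 5.43, 8.71, 9.46 and 9.62 in the authors' deposited table. All 22 peaks of these 3 genes were positive, against 86.0% of all peaks, and their values spread over most of the column's range. On the genome, introns included, these genes span 18775, 14247 and 29980 bases, and MBNL2, at 252287 bases, had 2 peaks. Lengths of the spliced transcripts were not analysed here, and their part in the number of peaks was not tested. Across the 61 genes, the number of peaks and the genomic span had a Spearman correlation of 0.20 and a Pearson correlation of 0.10. Both are given as a description, since all points come from the same libraries and peak calls.

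**Figure D3:**
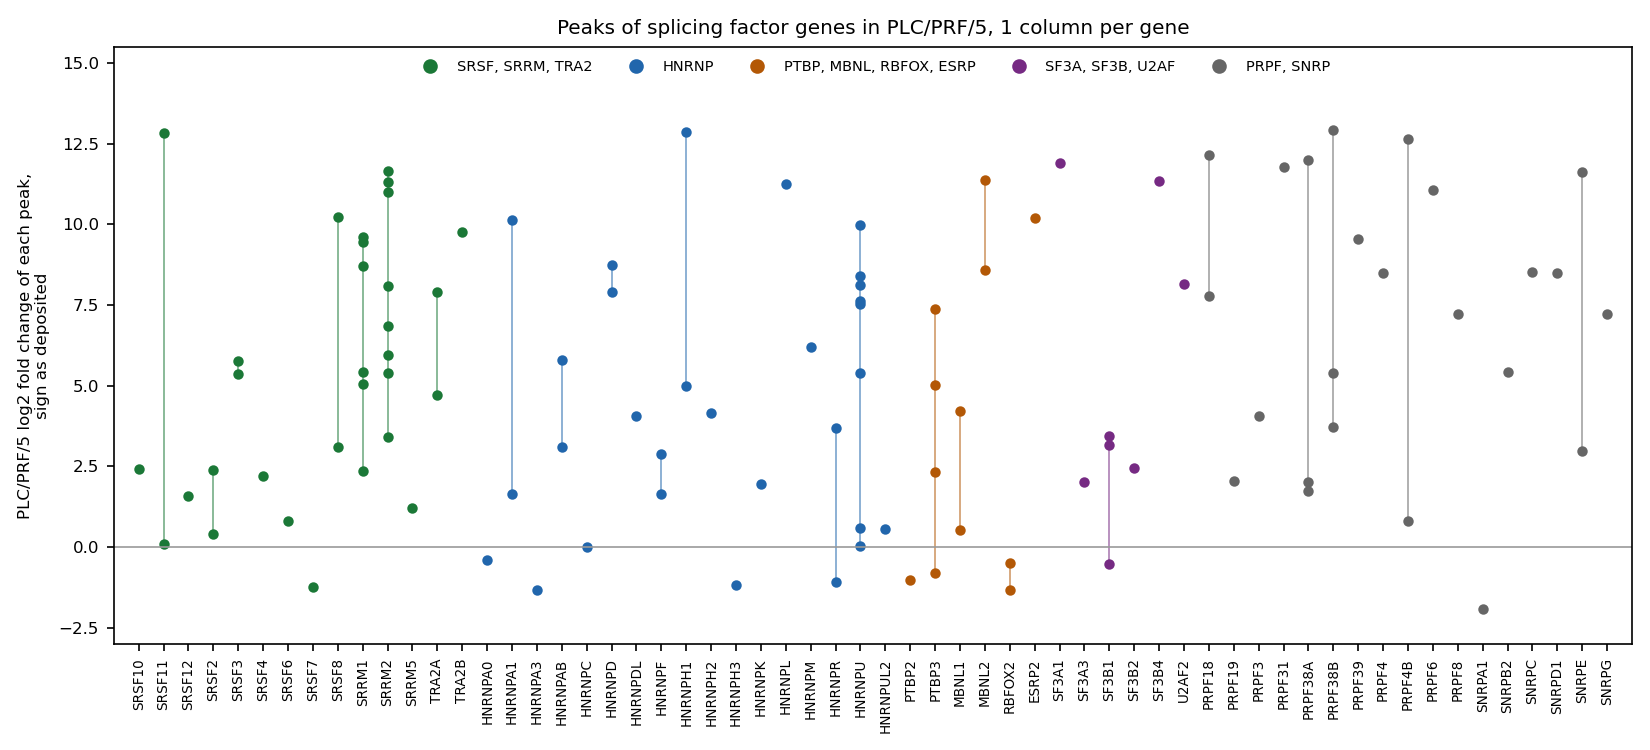
PLC/PRF/5 log2 fold change of every peak (vertical axis, sign as deposited) in the authors' deposited table, 1 column for each of 60 splicing factor genes, coloured by role, with a line from a gene's lowest to its highest peak. Most columns lie above 0, SRRM2 and HNRNPU hold 8 peaks each, and the lowest point is SNRPA1 at -1.93.

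The median PLC/PRF/5 peak varied between the roles, and these differences were not tested. It was 5.39 over 31 peaks of SRSF, SRRM and TRA2 genes, 4.10 over 30 hnRNP peaks, 3.27 over 12 peaks of PTBP, MBNL, RBFOX and ESRP genes, 3.30 over 8 peaks of SF3A, SF3B and U2AF genes and 7.51 over 26 peaks of PRPF and SNRP genes, against 5.44 in the column. Genes with many peaks weigh more in these medians. With 1 median per gene the roles had, in the same order, 3.99, 4.05, 3.02, 5.65 and 7.27, against 5.45 in the column. The order of the roles thus depended on how peaks were counted. By peak, families within a role differed as well, with 2.38 over 13 SRSF, 6.85 over 15 SRRM and 7.91 over 3 TRA2 peaks. All 19 PRPF peaks and all 15 SRRM peaks were positive, against 86.0% of all peaks. Of the SRRM peaks, SRRM2 held 8 and SRRM1 6. Of the SR genes with a value in PLC/PRF/5 only, SRSF3 had the pair of peaks given above, SRSF10 2.42, SRSF6 0.81 and SRRM5 1.20 in the authors' deposited table. TRA2A, the paralogue of TRA2B, had peaks at 4.71 and 7.91 in the authors' deposited table. PRPF8, at the catalytic centre, had 7.23, the tri-snRNP genes PRPF6 and PRPF3 had 11.07 and 4.07, and PRPF39 had 9.56 in the authors' deposited table. Sm ring genes SNRPD1 (8.48) and SNRPE (2.98 and 11.64) and the snRNP-specific genes SNRPC (8.52) and SNRPB2 (5.43) were also positive in the authors' deposited table. HNRNPK, a binder of C-rich RNA, had 1.95, SF3A3 2.01 and SF3B2 2.45 in the authors' deposited table.

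Negative peaks were found in 11 splicing factor genes (18.0%, against 21.9% of the column's genes). Only negative peaks were held by 8 of 61 genes (13.1%, against 8.75% of the column) and only positive peaks by 50 (82.0%, against 78.1%). The 8 were SNRPA1 (-1.93), HNRNPA3 (-1.32), SRSF7 (-1.23), HNRNPH3 (-1.17), PTBP2 (-1.01), HNRNPA0 (-0.40), HNRNPC (-0.01) and RBFOX2 (-1.34 and -0.50) in the authors' deposited table. Peaks of both signs were held by HNRNPR (-1.10 and 3.70), PTBP3 (-0.80, 2.31, 5.02 and 7.39) and SF3B1 (-0.52, 3.15 and 3.44) in the authors' deposited table. SNRPA1 encodes a protein of the snRNP that binds the branch site, PTBP2 is the neuronal relative of PTBP1, and HNRNPC, the m6A-dependent binder named above, had the value nearest 0 of the 8.

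In the 42 splicing factor genes with both values, signs matched about as often as over all shared names. Every PLC/PRF/5 peak had the sign of the HUH7 value in 22 genes (52.4%, against 47.9% of 3866 shared names) and the opposite sign in 17 (40.5%, against 36.9%), and 3 genes had peaks of both signs. All 22 matching genes were positive in both columns, and 86.0% of all PLC/PRF/5 peaks were positive. By the median peak, 24 of 42 genes (57.1%) had the same sign in both columns, against 56.9% of shared names. These 24 were likewise all positive in both columns. Over 41 genes without the repeated value of HNRNPH1, the HUH7 value and the median PLC/PRF/5 peak had a Pearson correlation of 0.03 and a Spearman correlation of -0.06, given as a description of genes from 1 table. If the columns were built in opposite directions, the counts of same and opposite sign would trade places.

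Of the 14 HUH7 genes at or past 1, 9 had a PLC/PRF/5 value (64.3%, against 29.8% of all names at or past 1). Over all sizes the share was 72.4% of the splicing factor genes with an HUH7 value, against 37.0% of all names. MBNL1 had peaks at 0.53 and 4.23, MBNL2 at 8.59 and 11.37, HNRNPAB at 3.10 and 5.81, and HNRNPH1 at 4.99 and 12.87 in the authors' deposited table, each with the positive sign of HUH7, as had all SRRM2 peaks. HNRNPF had peaks at 1.64 and 2.87 and HNRNPDL 1 peak at 4.05 in the authors' deposited table, positive beside negative HUH7 values. PTBP3 and SF3B1 had peaks of both signs. SRSF5, HNRNPA1L2, CELF1, SF3A2 and SRRM3 had no PLC/PRF/5 value analysed here.

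**Figure D4:**
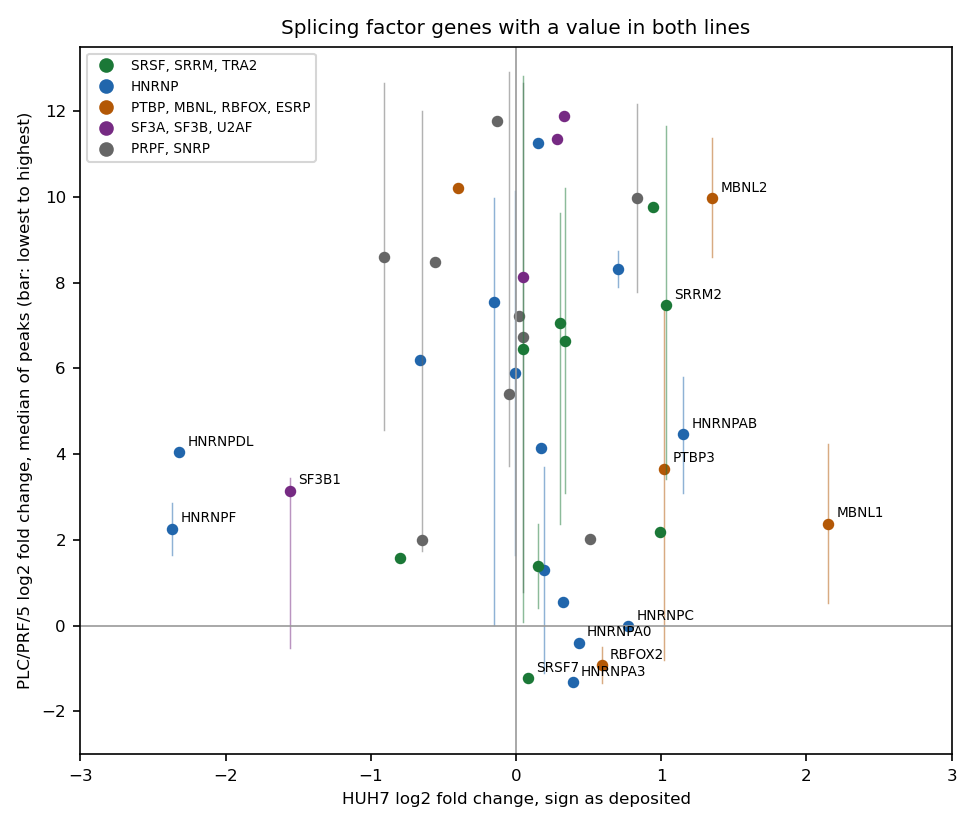
HUH7 log2 fold change (horizontal axis) against the median PLC/PRF/5 peak (vertical axis, with a bar from the lowest to the highest peak) for the 41 splicing factor genes with both values and no repeated HUH7 value, signs as deposited. Of the points, 5 have a PLC/PRF/5 median below 0 (HNRNPA3, SRSF7, RBFOX2, HNRNPA0 and HNRNPC), and the others spread over the positive range at HUH7 values of both signs.

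The remaining genes with both values lay within 1 of 0 in HUH7 and spread over the PLC/PRF/5 range. Positive in both columns were TRA2B (9.76 in PLC/PRF/5), U2AF2 (8.14), SF3A1 (11.89), SF3B4 (11.36), SNRPG (7.23), HNRNPL (11.25), HNRNPH2 (4.15) and HNRNPUL2 (0.55), each with 1 peak in the authors' deposited table. SRSF4 (2.19 in PLC/PRF/5), PRPF19 (2.03), SRSF2 (0.41 and 2.38), SRSF8 (3.09 and 10.22), HNRNPD (7.89 and 8.73) and PRPF18 (7.79 and 12.16) were also positive in both columns of the authors' deposited table.

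Other genes of the splicing pathway, a list of 89 kinases, helicases and spliceosome subunits outside the prefixes, stayed closer to 0 in HUH7. A value was found for 57 of them, 36 positive and 21 negative (63.2% positive, against 60.8% of the column), with a median of 0.08. At or past 1 in size lay 6 genes (10.5%, against 36.9%), 3 in each direction. SMNDC1 (3.8), which acts in spliceosome assembly, CDC40 (2.33), of the second catalytic step, and PUF60 (1.88), which binds U-rich 3′ splice sites, were the highest in the authors' deposited table. The SR protein kinase gene CLK2 (-0.93) and BUD13 (-0.88) were among the lowest unrepeated values in the authors' deposited table. LUC7L (-8.94) and RALY (-7.53), a relative of HNRNPC, had repeated values in the authors' deposited table. In PLC/PRF/5 58 of the 89 had 124 peaks, of which 108 were positive (87.1%, against 86.0%), with a median of 6.48.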

How the data were processed

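Oligo(dT)-selected RNA was fragmented and immunoprecipitated with an m6A antibody before random-hexamer cDNA synthesis, per the labels' protocols. The submitters' processing notes name FastQC 0.12.0 and build hg38; no aligner, peak caller, differential test or scaling is given in the sources used here. Per the file headers, the authors deposited log2 fold changes of a difference for HUH7 and PLC/PRF/5, and those were used unchanged. Members were found by prefix on the names given; "ending in P and a number" was read after the prefix, which keeps PTBP and ESRP genes. RefSeq (GRCh38.p14) matched 76 members by symbol and 1 by synonym. Counts, medians and ranges were computed with Python 3.11.15 and numpy 2.4.6. Simulated data were used to check only the search for repeated values and the coverage of the median interval. The name rule was checked on a fixed list of symbols. Named were members with repeated values, at or past 1, highest and lowest of a family, with 2 or more peaks, or in both lines, CSTF2, and 3 pathway genes per sign; other members are named as well. Members, lists and the grouping of families by role were chosen with earlier results of these data known. One member and 1 pathway gene are counted but not reported here by name. A planned comparison of protein sequences was not run.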

Additional observations from a re-analysis of the deposited data

Results flagged for a closer look

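In 17 splicing factor genes, of which 16 are named here, every PLC/PRF/5 peak had the sign opposite to the HUH7 value. The difference between the lines was not tested, since each value comes from unreplicated libraries and a common direction of the columns is not stated. The 17 are 40.5% of the 42 splicing factor genes with both values, near the 36.9% of all shared names. Of all PLC/PRF/5 peaks 86.0% were positive, so most genes with a negative HUH7 value had peaks of opposite sign. Values as small as -0.01 in HNRNPA1 were counted by sign as well. Negative in HUH7 with only positive peaks were HNRNPF (-2.37), HNRNPDL (-2.32), SRSF12 (-0.80), HNRNPM (-0.66), PRPF38A (-0.65), PRPF4 (-0.56), ESRP2 (-0.40), HNRNPU (-0.15), PRPF31 (-0.13), PRPF38B (-0.05) and HNRNPA1 (-0.01) in the authors' deposited table. Their PLC/PRF/5 peaks ran from 0.02 in HNRNPU to 12.92 in PRPF38B in the authors' deposited table. Among single peaks, PRPF31 had 11.78, ESRP2 10.20, PRPF4 8.48, HNRNPM 6.19 and SRSF12 1.57 in the authors' deposited table. HNRNPA1 had peaks at 1.64 and 10.15, PRPF38A had 1.75, 2.0 and 12.01 and PRPF38B 3.73, 5.40 and 12.92 in the authors' deposited table. Positive in HUH7 with only negative peaks were HNRNPC (0.77), RBFOX2 (0.59), HNRNPA0 (0.43), HNRNPA3 (0.39) and SRSF7 (0.08) in the authors' deposited table.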

How the results depend on the processing

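Leaving out repeated HUH7 values (shared by 10 or more, or by 5 or more, genes), putting in HNRNPA2B1 or pseudogene symbols, and using current symbols left the HUH7 counts of 40 positive and 18 negative genes within 1.5 times and the HUH7 median between 0.19 and 0.26. With current symbols PRPF4B leaves the list, and HNRNPA1P48, now HNRNPA1L3, joins it. The count of 14 genes at or past 1 became 30 at a threshold of 0.5 (57.7% of the column) and 5 at a threshold of 2 (21.4% of the column), by construction. In PLC/PRF/5 the median gene value of 5.43 became 7.23 with the largest peak per gene, and counting every peak gave 95 positive values in place of 53 genes, also by construction. Without SRRM3 the SRRM median in HUH7 was 0.66 in place of 0.30. No paired analysis was possible because each group held 1 library and the table holds no values per library. Leaving out replicates was impossible for the same reason, and depth is unknown.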

Other observations

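Names of these families that the rule leaves out also had values. In the authors' deposited table, HNRNPA2B1 had 0.26 in HUH7 and 2 PLC/PRF/5 peaks, at -0.45 and 12.91. The pseudogene symbol HNRNPA1P48 had -0.30 in HUH7, and HNRNPA1P7 (5.45), HNRNPCP2 (7.36) and SNRPEP4 (5.07) had 1 PLC/PRF/5 peak each in the authors' deposited table. SNRPC and SNRPG have 20 RefSeq pseudogenes each, SNRPE 11 and HNRNPA3 17, so their values are open to shared reads in the same way as those of HNRNPA1. Other members have fewer or none. HNRNPC (9), HNRNPDL (5) and HNRNPH1 (3) are among those that have some, and the same holds for them.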
